A study of Mus musculus with 15 samples.

Results

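The Nat8 family locus on mouse chromosome 6 holds a run of closely related acetyltransferase-like genes beside Alms1 and a partial copy of it, and 7 of its genes are described here: Nat8, Nat8f1, Nat8f2, Nat8f3, Nat8f5, Alms1 and the pseudogene Alms1-ps2. They were taken as a list of gene names from 33058 genes with a summed value, and the value of a gene was the sum of FPKM (the fragments of a transcript, scaled by its length and by the mapped fragments of the library) over its annotated transcripts and over assembled transcripts that share its splice sites or overlap its exons on the same strand. The list was chosen by results of the comparison of 24-month-old with 3-month-old mice, in which a transcript of Nat8f3 and an assembled antisense transcript of Alms1-ps2 had already stood out, so values of these genes in that comparison are given as a description with no test. In all, 30 deposited rows carried these names. Of these, 23 entered the gene sums, 16 annotated and 7 assembled, and 4 assembled transcripts inside introns, 2 on the opposite strand and 1 unspliced row were kept apart.

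Whole kidneys of 15 male C57BL/6 mice were sequenced, 5 each at 3, 12 and 24 months of age, with no treatment or genetic change stated in the labels. The mice carried the numbers 5 to 9 at 3 months, 17 to 21 at 12 months and 31 to 35 at 24 months, and values below follow that order. Each library was 1 mouse, so the spread between replicates is a spread between animals. In whole tissue, fewer cells of a type and less RNA per cell cannot be told apart.

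The human NAT8 gene encodes the enzyme of the endoplasmic reticulum that acetylates cysteine conjugates, the last step of mercapturic acid synthesis, by which the proximal tubule readies glutathione-conjugated toxins for the urine. The mouse genes named Nat8f1 to Nat8f7, formerly called camello-like genes, are copies of the same family, and the function of most of them is less well known. Alms1 encodes a large protein of centrosomes and of the base of cilia that is mutated in Alström syndrome, a ciliopathy in which kidney function declines.

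The 7 genes spanned 345.8 kb of chromosome 6, from 85587531 to 85933379 in the build of the deposited files, GRCm38. Alms1 and Alms1-ps2 lie on the plus strand and the Nat8 family members on the minus strand. The copies are so alike in places that reads cannot always be assigned to 1 of them, and the sequences that decide this come first.

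**Figure D1:**
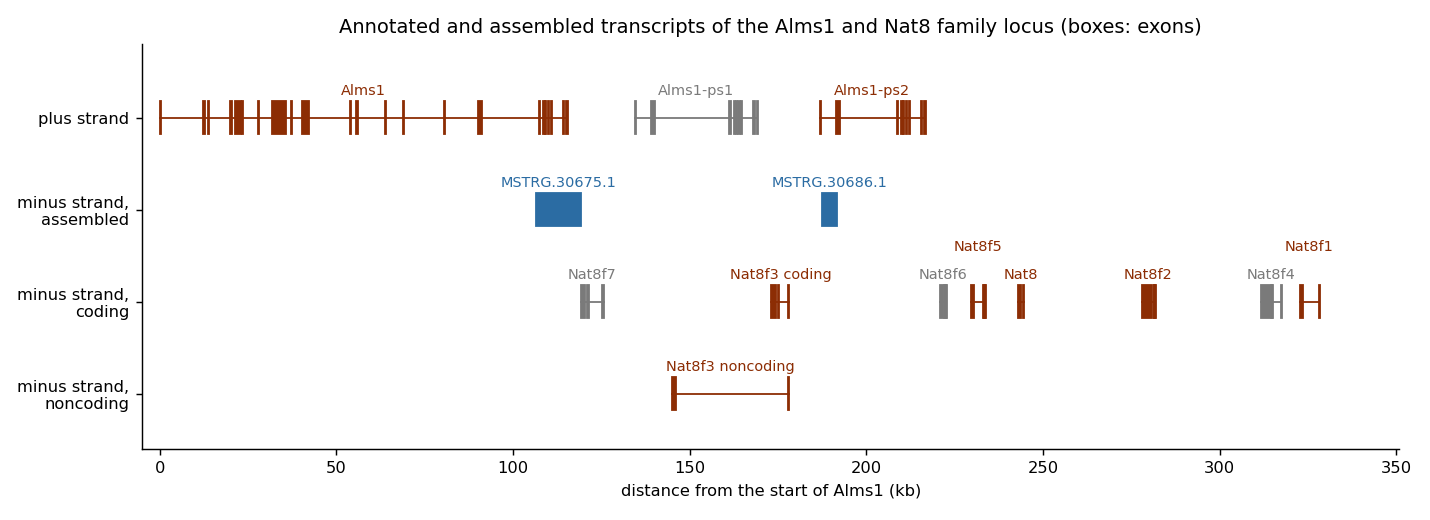
Map of the locus in kb from the start of Alms1, with exons as boxes, the 7 genes in brown, other annotated family members in grey and 2 assembled antisense transcripts in blue. The noncoding Nat8f3 transcript starts with the coding one and ends beyond it, and the antisense transcript MSTRG.30686.1 lies mostly in the first intron of Alms1-ps2.

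The coding sequence of Nat8f3 was almost the same as those of Nat8f7 and Nat8f6, its neighbours on both sides. In a global alignment of annotated coding sequences, identity was 99.56% between Nat8f3 and Nat8f7, 99.27% between Nat8f3 and Nat8f6, and 99.12% between Nat8f6 and Nat8f7. Bases 21 to 100 of the 3 coding sequences are shown because they hold the few letters by which reads of these genes can be told apart there, with the bases that differ in capitals.
Nat8f3: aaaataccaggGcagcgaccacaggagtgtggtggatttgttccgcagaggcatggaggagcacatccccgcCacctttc
Nat8f6: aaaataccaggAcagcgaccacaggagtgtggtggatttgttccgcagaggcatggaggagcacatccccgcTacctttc
Nat8f7: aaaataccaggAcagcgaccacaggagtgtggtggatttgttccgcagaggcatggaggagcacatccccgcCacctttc
Counted from 1 at the first coding base, with the Nat8f3 base first, the substitutions were G32A and C93T in Nat8f6 and G32A, C304A and C394T in Nat8f7. The other members were farther apart. Nat8 shared 79.33% of aligned coding bases with Nat8f5, 78.71% with Nat8f1 and 69.54% with Nat8f3, and the lowest identity among the 8 coding family members was 62.83%, between Nat8f2 and Nat8f6.

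This likeness touched the isoforms unequally. Of all 150-base windows of the coding Nat8f3 transcript ENSMUST00000050780, 66.9% were also found in a transcript of another gene, with a longest shared run of 736 bases in Nat8f7. In the noncoding Nat8f3 transcript ENSMUST00000201219 the share was 0.349%. It was 5.28% in the main Nat8f1 transcript, 1.87% in Nat8f2, 0 in Nat8 and Nat8f5, 48.0% in Alms1-ps2 and 8.90% and 9.96% in both coding Alms1 transcripts.

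Nat8f1 had the highest mean of the 7 genes, and Nat8f1 and Nat8 varied most between mice of the same age. Over all 15 mice, mean summed FPKM was 45.5 for Nat8f1, 16.2 for Nat8, 11.8 for Nat8f2, 3.79 for Alms1, 3.28 for Nat8f3, 2.90 for Alms1-ps2 and 1.51 for Nat8f5. The place of Nat8 above Nat8f2 rests on 1 high mouse at each age, since its medians were 13.2, 3.15 and 12.2 FPKM at 3, 12 and 24 months where those of Nat8f2 were 11.3, 12.0 and 13.9. The ranges over mice of each pair of neighbours in that order overlapped, from 0.991 to 80.2 for Nat8f1, 2.13 to 56.1 for Nat8 and 3.82 to 14.8 for Nat8f2. They ran from 2.31 to 7.16 for Alms1, 0.693 to 6.12 for Nat8f3, 0.655 to 5.59 for Alms1-ps2 and 0.472 to 4.61 for Nat8f5.

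**Figure D2:**
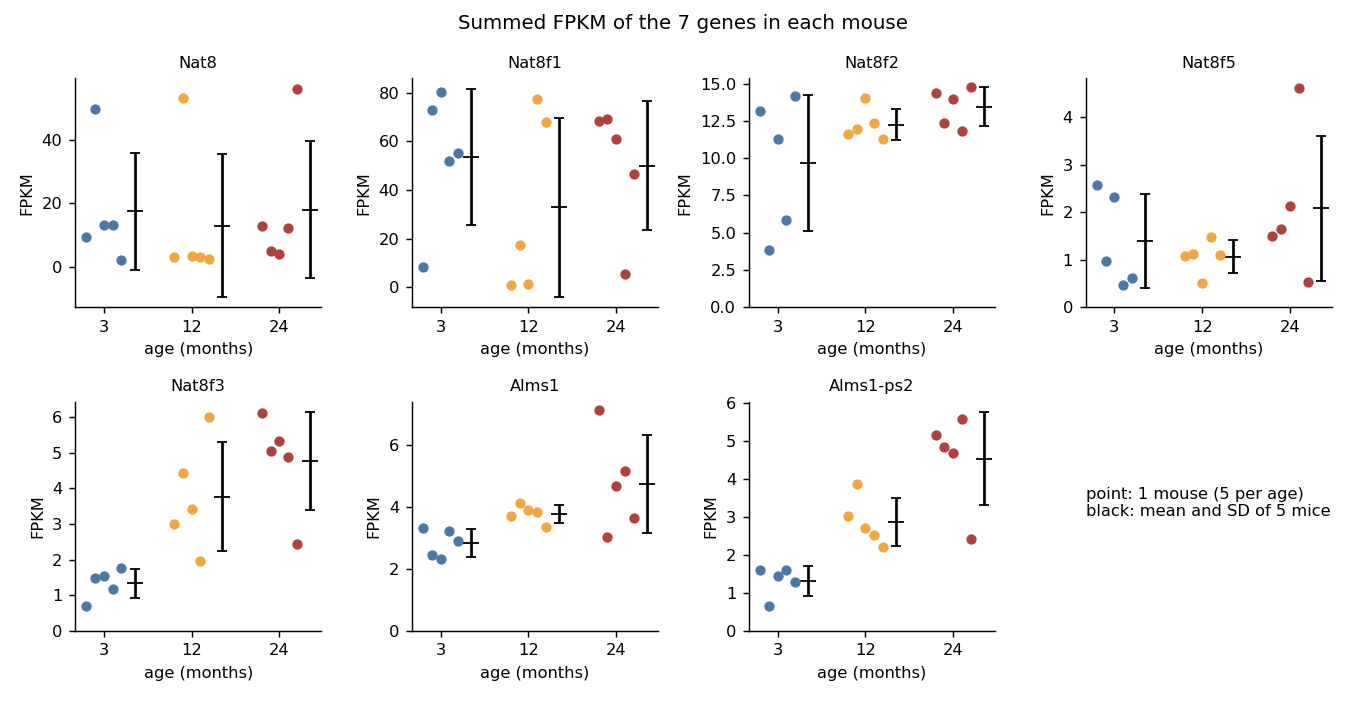
Summed FPKM of the 7 genes by age in months, with 1 point per mouse and the mean and SD of 5 mice in black. Nat8f3 and Alms1-ps2 at 24 months lay above every 3-month mouse, whereas Nat8 and Nat8f1 ranged widely at each age.

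All 12-month mice were above all 3-month mice in Nat8f3, Alms1 and Alms1-ps2. At 24 months this held for Nat8f3 and Alms1-ps2 but not for Alms1, and Nat8, Nat8f1, Nat8f2 and Nat8f5 overlapped between all ages. Summed FPKM of Nat8f3 was 0.693, 1.47, 1.53, 1.18 and 1.76 at 3 months. It was 3.01, 4.42, 3.41, 1.96 and 6.00 at 12 months and 6.12, 5.06, 5.32, 4.87 and 2.44 at 24 months. All 12-month and 24-month mice were above all 3-month mice, while the older groups overlapped each other, with mouse 35 lowest at 24 months and mouse 20 lowest at 12 months. The means were 1.33 ± 0.411, 3.76 ± 1.53 and 4.76 ± 1.38 (SD, n = 5 per age). At 24 months the mean was 3.58 times that at 3 months, a difference of 1.29 on the log2(FPKM + 1) scale (SE 0.21), where the added 1 makes changes of low values look smaller.

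Alms1-ps2, annotated as a transcribed unprocessed pseudogene, had summed FPKM of 1.60, 0.655, 1.43, 1.60 and 1.27 at 3 months. Its values were 3.02, 3.87, 2.70, 2.52 and 2.20 at 12 months and 5.15, 4.84, 4.69, 5.59 and 2.42 at 24 months. Here too the 3-month mice were all below the others, and only mouse 35 among the 24-month mice fell within the 12-month range. The means were 1.31 ± 0.390, 2.86 ± 0.636 and 4.54 ± 1.23 (SD, n = 5 per age), and the 24-month mean was 3.46 times the 3-month mean, a log2 difference of 1.24 (SE 0.20).

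The parent gene Alms1 differed less. Its summed FPKM was 3.32, 2.45, 2.31, 3.24 and 2.91 at 3 months. It was 3.71, 4.14, 3.91, 3.84 and 3.36 at 12 months and 7.16, 3.04, 4.67, 5.18 and 3.66 at 24 months. The 12-month mice lay just above all 3-month mice, whereas mouse 32 at 24 months fell among the 3-month values and mouse 31 was the highest of all. Means were 2.84 ± 0.457, 3.79 ± 0.287 and 4.74 ± 1.59 (SD, n = 5 per age), with a log2 difference between 24 and 3 months of 0.54 (SE 0.18) and a fold of means of 1.67.

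The comparison of 12 with 3 months asks whether the older level is already seen in mid-life. It shares the 5 young mice with the comparison by which the genes were chosen and is therefore not independent of that choice. Nat8f3 was higher at 12 months by 0.99 on the log2 scale (SE 0.23), a 2.83-fold difference of means, with an unadjusted limma p of 0.00169 and a Benjamini-Hochberg adjusted p of 0.102 over all genes. Alms1-ps2 was higher by 0.74 (SE 0.16), a 2.18-fold difference of means, with a limma p of 0.00107, adjusted to 0.0885. Alms1 was higher by 0.32 (SE 0.10), a 1.33-fold difference of means, with a limma p of 0.00897, adjusted to 0.187. These differences stood out by the unadjusted limma p alone, since none passed the adjustment and all stayed under a log2 difference of 1. In an exact two-sided permutation test each of the 3 gave p = 0.00794, the smallest that 5 against 5 mice allow. Any gene whose ages do not overlap gives this p, so it adds nothing to the separation of the mice.

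A call in a comparison required an unadjusted limma p under 0.05 and an absolute log2 difference above 1. None of the 7 genes was called between 12 and 3 months, although 3 had an unadjusted p under 0.05, beside 14.3% of all genes, and 158 of 31637 genes, or 0.499%, were called. Nat8f3 was just under the limit and passed it with a pseudocount of 0.1 (1.40), in TPM (1.27), as FPKM times length in kb (1.70) and without any 1 of mice 6, 7, 9, 17, 19 and 20. Over all settings its log2 difference ranged from 0.78 to 1.70. In 3 of the 7 genes the ages did not overlap and the 12-month mice were higher, beside 3.45% of all genes. Their median log2 difference was 0.32, beside 0.02 over all genes, and 4 of the 7 were above 0. Between 24 and 3 months the ages did not overlap in 2 of the 7, Nat8f3 and Alms1-ps2, beside 3.82% of all genes with higher old mice and 0.523% called, and nothing is read from this because that contrast chose the genes. The median was then 0.54, beside 0.02 over all genes.

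Between 24 and 12 months, a comparison that shares the 5 old mice with the one behind the choice, Alms1-ps2 had the smallest p. It was higher at 24 months by 0.50 on the log2 scale (SE 0.19), with an unadjusted limma p of 0.0248 that was adjusted to 0.747, and its exact permutation p was 0.0476. The other 6 genes had limma p-values of 0.154 or more, with log2 differences from 0.12 for Nat8f2 to 1.54 for Nat8f1. None of the 7 was called and none had separate ages, beside 0.17% of all genes called and 0.493% with all 24-month mice higher. All 7 differences were above 0, with a median of 0.47 beside -0.00126 over all genes.

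Most of what was summed as Nat8f3 was not the coding transcript. ENSMUST00000201219, annotated as a processed transcript without a coding sequence, shares its first exon region with the coding ENSMUST00000050780 (first exons chr6:85765347-85765754 and chr6:85765351-85765744) but splices to a second exon at chr6:85732513-85733684, beyond the 3′ end of the coding gene at 85760649. The coding sequence of ENSMUST00000050780 lies in its last exon, between 85761095 and 85761778. The exon junctions are shown because they are what a read needs to tell the 2 transcripts apart at their shared start, with the end of the first exon in lower case and the start of the next in capitals.
ENSMUST00000201219: caatccccaaggcaaAAGACTAGCAATGGC
ENSMUST00000050780: tcttcaatccccaagGTTCATTCTGTGGCG
The donor sites were a few bases apart.

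The noncoding transcript made up part of the age difference. Its FPKM was 0.334, 0.324, 0.599, 0.582 and 0.653 at 3 months. It was 1.42, 1.66, 1.93, 1.08 and 1.65 at 12 months and 2.89, 2.87, 2.44, 2.42 and 1.63 at 24 months. No 3-month mouse reached the lowest older mouse, beside 1.33% of all transcripts with every 12-month and 1.6% with every 24-month mouse above every 3-month mouse, the second of which is given only as a description, and 4 of the 24-month mice were above all 12-month mice. Means were 0.499 ± 0.157, 1.55 ± 0.317 and 2.45 ± 0.511 (SD, n = 5 per age), and the log2 difference between 24 and 3 months, by which this transcript had been singled out, was 1.20. Between 12 and 3 months the log2 difference was 0.76 (SE 0.14), with a limma p of 0.000227 adjusted to 0.218 over all transcripts. Between 24 and 12 months it was 0.43 (SE 0.14), with a limma p of 0.0141 adjusted to 0.838. Neither was a call, in fits that called 0.784% and 0.402% of all transcripts. Each shares an age group with the comparison that singled out this transcript, so neither is independent of that choice. Nat8f3 without this transcript had means of 0.831 ± 0.341, 2.21 ± 1.37 and 2.31 ± 0.928 FPKM (SD, n = 5 per age), with overlap between all ages.

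ENSMUST00000050780 had FPKM of 0, 0.824, 0.515, 0.362 and 0.622 at 3 months. It had 0.345, 0.292, 0.253, 0.0871 and 3.57 at 12 months and 0.193, 0.263, 0.589, 0.390 and 0.425 at 24 months. Apart from mouse 21, which was far above any other mouse, the 12-month mice lay at 0.345 or less, below 4 of the 5 3-month mice, and all ages overlapped. Its log2 difference between 12 and 3 months was 0.17 (SE 0.38), with a limma p of 0.673, and turned to -0.21 without mouse 21. The other coding transcript, ENSMUST00000168531, had a mean of 0 at 3 months and 0.0777 at 12 months. With 66.9% of the windows of ENSMUST00000050780 also found in other genes, its level also rests on how StringTie divided shared reads, and the part of this in the result was not tested.

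The median share of ENSMUST00000201219 in the Nat8f3 sum was 39.1%, 47.2% and 49.6% at 3, 12 and 24 months, and that of ENSMUST00000050780 was 33.5%, 7.41% and 8.0%. Most of the remainder was MSTRG.30678.5, an assembled transcript of 20897 bases from chr6:85760714-85792005 on the minus strand that starts opposite Alms1-ps2 and ends in Nat8f3. Its FPKM was 0.344, 0.0185, 0.409, 0.226 and 0.214 at 3 months, 1.23, 2.08, 1.07, 0.558 and 0.144 at 12 months and 2.07, 1.23, 1.80, 0.778 and 0.144 at 24 months. Mice 21 and 35 stayed among the 3-month values. The log2 difference between 12 and 3 months was 0.63 (SE 0.25), with a limma p of 0.0313 adjusted to 0.639. Because FPKM divides by length, this long row weighs far more in FPM, which is FPKM times length in kb and stands for the fragments of a row relative to its library. In FPM the whole Nat8f3 sum ranged from 3.63 to 10.6 at 3 months, 16.4 to 47.1 at 12 months and 9.18 to 58.7 at 24 months, so that the 24-month and 3-month mice then overlapped through mouse 35. The mean FPM of MSTRG.30678.5 was 5.07, 21.2 and 25.2 at 3, 12 and 24 months, where that of ENSMUST00000201219 was 0.788, 2.45 and 3.87. The unspliced row MSTRG.30684.1, from 85744250 to 85764147, was outside the sum and had means of 0.744, 1.74 and 1.13 FPKM.

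**Figure D3:**
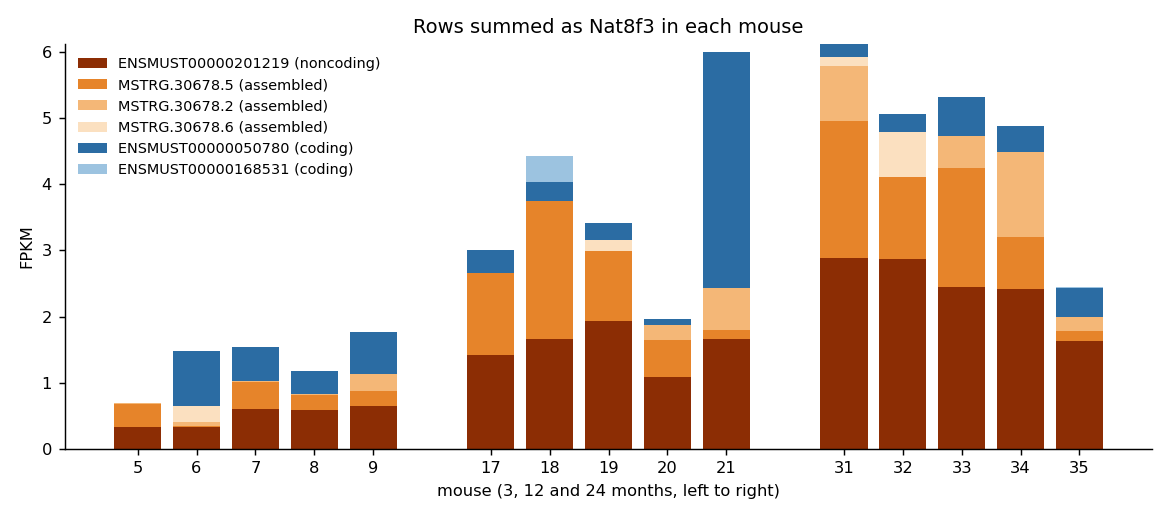
FPKM of the 6 rows summed as Nat8f3, stacked for each of the 15 mice, which are ordered by age from left to right. The noncoding ENSMUST00000201219 and the assembled MSTRG.30678.5 filled most of the taller bars at 12 and 24 months, and the coding ENSMUST00000050780 was tall in mouse 21 alone.

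The promoter of Nat8f3 shared a long identical run with the upstream one of 2 Nat8 promoters. Promoter sequences of the 300 bases around annotated starts were taken from RefSeq on GRCm38.p6, and all members but Alms1-ps2 matched an entry. Both promoters are shown for their shared run of 100 bases, in capitals. The first is Nat8f3 at chr6:85765695-85765994 and the second Nat8 at chr6:85836808-85837107, both on the minus strand. Every Nat8 row began downstream of this Nat8 promoter, the farthest upstream at 85832783, so the Nat8 values do not measure it.
Nat8f3: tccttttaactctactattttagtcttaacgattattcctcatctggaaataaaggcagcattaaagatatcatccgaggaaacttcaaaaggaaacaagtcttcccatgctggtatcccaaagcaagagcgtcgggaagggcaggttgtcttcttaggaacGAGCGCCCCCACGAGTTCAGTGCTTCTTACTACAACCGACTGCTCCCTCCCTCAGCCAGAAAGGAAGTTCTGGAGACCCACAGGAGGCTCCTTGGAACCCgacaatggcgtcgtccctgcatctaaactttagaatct
Nat8: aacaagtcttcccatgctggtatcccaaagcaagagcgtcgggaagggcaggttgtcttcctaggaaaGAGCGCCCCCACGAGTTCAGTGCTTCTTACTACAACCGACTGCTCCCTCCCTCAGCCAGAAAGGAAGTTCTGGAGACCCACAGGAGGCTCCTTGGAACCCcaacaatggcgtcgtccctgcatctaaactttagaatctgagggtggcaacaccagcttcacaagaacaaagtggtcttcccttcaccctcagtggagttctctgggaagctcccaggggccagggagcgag
Among the 11 promoters of the locus, only the pair of Nat8f7 and Nat8f6 shared a longer run, of 146 bases. The letters GTTAAT, part of the motif of the tubule factor HNF1, stood on either strand in 2 of the 11, the downstream Nat8 promoter and that of Nat8f5, beside 7.10% of 32851 RefSeq promoters. GGGCGG stood in 2, those of Alms1 and Nat8f1, beside 35.7% of all. CCAAT stood in 7 beside 37.4%, and TATAAA in 3, those of Nat8f4, Nat8f6 and Nat8f7, beside 13.6%. None of these motifs contains another on either strand, and a match is a description of sequence only.

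Nearly all of Alms1-ps2 was the transcript ENSMUST00000161983, which has 9 exons and 2290 bases at chr6:85774393-85804057. Its mean FPKM was 1.31, 2.86 and 4.54 at 3, 12 and 24 months, and the shorter ENSMUST00000160606 was 0.00282 or less on average at any age. In 7 of the 9 exons the length equalled that of an Alms1 exon in the run from exon 16 to exon 22, the longest being exon 2 with 1154 bases. Over 2173 aligned columns it was 99.03% identical to the coding Alms1 transcript ENSMUST00000213058, so reads of Alms1 and of its copy can be exchanged over long stretches.

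A second pseudogene copy, Alms1-ps1, had means of 0.623 ± 0.260, 1.07 ± 0.206 and 1.80 ± 0.305 FPKM (SD, n = 5 per age). It was 98.94% identical to Alms1-ps2, and the longest run the 2 pseudogenes shared was 660 bases. All 24-month mice were above all 3-month mice in Alms1-ps1, beside 3.82% of all genes, with a log2 difference of 0.80 (SE 0.14). This is given as a description with no test, because that contrast chose the list that holds the near-identical Alms1-ps2. Between 24 and 12 months the log2 difference was 0.43 (SE 0.12), with a limma p of 0.00398 adjusted to 0.665, and between 12 and 3 months it was 0.36 (SE 0.13), with a limma p of 0.0231 adjusted to 0.263. Since the copies share so much sequence, the values of Alms1-ps1 and Alms1-ps2 are not separate measurements.

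The antisense transcript of Alms1-ps2 was the one row of these genes called between 24 and 12 months, beside 0.402% of all transcripts. That comparison shares the 24-month mice with the contrast that chose the row, so the call is not independent of that choice. MSTRG.30686.1 is an assembled, unspliced row of 4125 bases on the minus strand at chr6:85775021-85779145, of which 3979 bases, or 96.5%, lie in the first intron of Alms1-ps2 and 146 in its second exon. Its FPKM was 1.65, 0.121, 1.29, 1.34 and 1.23 at 3 months. It was 0, 3.09, 2.61, 1.83 and 1.92 at 12 months and 6.61, 4.06, 5.79, 7.67 and 2.33 at 24 months. All 24-month mice were above all 3-month mice, in the contrast that chose the row, but mouse 35 fell within the 12-month range, and mouse 17 was listed at 0.

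MSTRG.30686.1 had means of 1.13 ± 0.584, 1.89 ± 1.18 and 5.29 ± 2.12 FPKM (SD, n = 5 per age). It was higher at 24 than at 12 months by 1.19 on the log2 scale (SE 0.40), with a limma p of 0.0148 that was adjusted to 0.838 over all transcripts. Without mouse 17 the difference was 0.84 and no longer a call. The log2 difference between 12 and 3 months was 0.36 (SE 0.39), with a limma p of 0.383. Between 24 and 3 months, the contrast that brought it to notice, it was 1.55.

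The stretch that the study amplified to measure MSTRG.30686.1 by PCR is shown because it lies wholly in the first intron of Alms1-ps2, and the sites of the primers are in capitals.
MSTRG.30686.1: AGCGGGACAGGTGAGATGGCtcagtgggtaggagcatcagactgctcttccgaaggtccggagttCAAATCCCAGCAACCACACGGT
These 87 bases span chr6:85778274-85778360, written on the minus strand. In the study's PCR of young and old kidneys, this row was not among the assembled transcripts named as matching the sequencing. The remaining assembled transcripts were described there as having the same direction without statistical significance. The forward primer occurred in 0 of 141767 annotated mouse transcripts and the reverse primer in 8, and no transcript held both. Those with the reverse primer were transcripts of Ctf2, Naip5, Psmb11, Rnf168, Stat3 and Wdr47. Only exact matches were counted, so near copies would be missed. The genome itself was not searched, so primer sites in introns outside annotated transcripts would be missed. Whether the stretch is unique was therefore not tested. Along its whole length the antisense row was not unique. Its reverse complement was 97.81% identical over 1233 columns to bases 1809 to 3041 of the Alms1 transcript ENSMUST00000201221, with a longest identical run of 227 bases. That stretch lies between exons 15 and 16 of the coding Alms1 transcript ENSMUST00000213058. The span of MSTRG.30678.5 also covers MSTRG.30686.1 on the same strand, and whether the estimation used strand is not given in the sources used here, so the part of either in these values was not tested.

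That Alms1 transcript was also the Alms1 row with the largest log2 difference between 24 and 3 months among those in its sum. ENSMUST00000201221, a retained-intron transcript at chr6:85666683-85669723, had FPKM of 0.774, 0.294, 0.415, 0.736 and 0.825 at 3 months. It had 0.822, 1.29, 1.60, 0.897 and 0.658 at 12 months and 3.89, 0.974, 1.62, 2.22 and 0.851 at 24 months. The lowest 24-month mouse was just above the highest 3-month mouse, and mouse 31 was far above the rest. The log2 difference was 0.77 between 24 and 3 months, 0.35 between 12 and 3 months with a limma p of 0.068, and 0.43 between 24 and 12 months with a limma p of 0.142. Its median share of the Alms1 sum was 22.7%, 23.4% and 34.6% at 3, 12 and 24 months.

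Both coding Alms1 transcripts, with 23 exons each, had smaller log2 differences between 24 and 3 months than this row, 0.28 for ENSMUST00000213058 and 0.01 for ENSMUST00000072018. ENSMUST00000213058 had means of 0.869 ± 0.350, 1.42 ± 0.165 and 1.27 ± 0.431 FPKM (SD, n = 5 per age), and ENSMUST00000072018 had 0.71 ± 0.285, 0.618 ± 0.314 and 0.733 ± 0.347. For ENSMUST00000213058 the log2 difference between 12 and 3 months was 0.40 (SE 0.15), with a limma p of 0.0279 adjusted to 0.638, and between 24 and 12 months it was -0.11 (SE 0.14), with a limma p of 0.451. The remaining retained-intron transcripts, ENSMUST00000201244 and ENSMUST00000202809, had means between 0.238 and 0.489 FPKM at every age.

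In all, 5 assembled rows lay inside Alms1 introns or against its strand. MSTRG.30675.1, an unspliced row of 12643 bases on the minus strand at chr6:85694062-85706704, covers the 3′ end of Alms1. Its FPKM was 1.34, 0.525, 1.07, 0.910 and 0 at 3 months, 2.76, 2.61, 2.01, 1.64 and 0.720 at 12 months and 0.756, 2.37, 2.80, 4.16 and 1.87 at 24 months. The older mice were mostly higher, but mice 21 and 31 were within the 3-month range. The log2 difference between 12 and 3 months was 0.74 (SE 0.28), with a limma p of 0.0254 adjusted to 0.633, and no call. The intronic row MSTRG.30673.1, also on the minus strand, had means of 0.515 ± 0.624, 1.21 ± 1.11 and 2.32 ± 1.40 FPKM (SD, n = 5 per age) with overlap between all ages, and the other intronic rows, MSTRG.30670.1, MSTRG.30672.1 and MSTRG.30674.1, had means of 0.949 FPKM or less.

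Circular RNAs from the same libraries were listed for Alms1, the only one of the 7 genes that hosted any, with 2 of 11929 listed circles. The larger, circRNA6638, joins 6 exons between 85641319 and 85678709. Its estimated counts were 291, 192, 216, 264 and 290 at 3 months. They were 495, 427, 507, 260 and 379 at 12 months and 995, 396, 594, 921 and 429 at 24 months. All 24-month mice were above all 3-month mice and mouse 20 at 12 months was among the youngest. Means were 251 ± 44.6, 414 ± 101 and 667 ± 277 (SD, n = 5 per age). The separation is a description only, because the contrast of 24 with 3 months chose the list of genes. The share of all circles with such a separation was not counted. The 24-month mean was 2.66 times the 3-month mean in estimated counts and 2.24 times in the FPKM values of the circle. The estimated counts above are not scaled to the library. Scaled to the total of estimated counts in each mouse, the fold was 2.47, and the 24-month and 3-month mice still did not overlap.

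The smaller circle, circRNA5246, shares its first base with the larger and ends at 85656529. It had means of 78.4 ± 9.06, 99.0 ± 19.6 and 92.4 ± 14.1 estimated counts (SD, n = 5 per age), and all ages overlapped. No test was run on the circles. Over the 15 mice, log2 values of circRNA6638 had a Pearson r of 0.93 with the retained-intron ENSMUST00000201221, whose span lies within the span of the circle, and 0.89 after each age was centred on its mean. With the coding ENSMUST00000213058 the values were 0.13 and -0.38. These are descriptions over libraries that share depth and method, and the same mice, 31 and 34, were high in the circle and the retained intron.

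**Figure D4:**
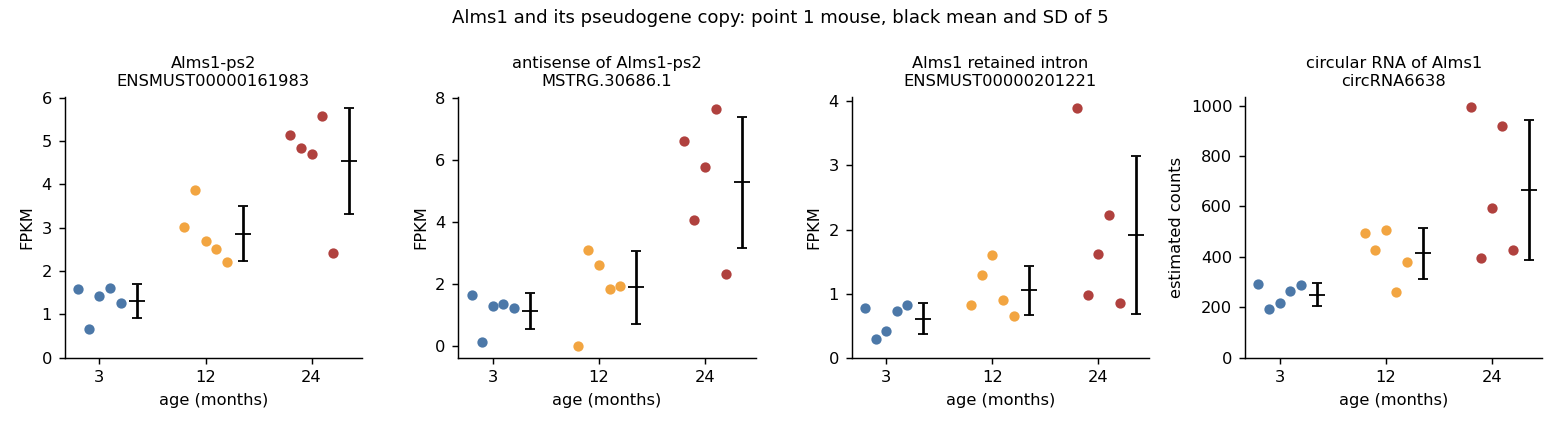
Values by age in months of Alms1-ps2, its antisense transcript, the Alms1 retained-intron transcript (FPKM) and the circular RNA circRNA6638 (estimated counts), with 1 point per mouse and the mean and SD of 5 mice in black. Mouse 35 was the lowest at 24 months in the first 3 panels, and mouse 31 the highest in the last 2.

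Nat8 was high in 1 mouse at each age. Its summed FPKM was 9.41, 49.6, 13.2, 13.2 and 2.13 at 3 months. It was 3.11, 53.1, 3.44, 3.15 and 2.44 at 12 months and 13.0, 4.93, 4.05, 12.2 and 56.1 at 24 months. Mice 6, 18 and 35 stood apart from the others of their ages, and the ages overlapped throughout. The log2 difference between 12 and 3 months was -0.91 (SE 0.90), with a limma p of 0.336, and between 24 and 12 months it was 0.90 (SE 0.89), with a limma p of 0.339. Without mouse 18 these became -1.66, with a limma p of 0.0331, and 1.65, with a limma p of 0.0310, which would both be calls. The whole Nat8 locus held 3 rows, all named Nat8, and in FPM it still ranged 18.6-fold, from 3.96 to 73.6, and no row of that locus carried another gene name.

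Nat8f1 had summed FPKM of 8.29, 72.8, 80.2, 52.1 and 55.05 at 3 months. It had 0.991, 17.4, 1.18, 77.3 and 67.8 at 12 months and 68.2, 69.2, 60.9, 5.27 and 46.5 at 24 months. Mice 5, 17, 18, 19 and 34 were low, in every age group, and the log2 differences of -1.72 (SE 1.17) between 12 and 3 months and 1.54 (SE 1.22) between 24 and 12 months had limma p-values of 0.175 and 0.237. In the 5 low mice rows under another name were high at the same place. Of 5 assembled or annotated rows named Nat8f4 at the same locus, 3 had spans that ran over at least 90% of Nat8f1, and these rows ranged from 0.838 to 73.3 FPM where rows named Nat8f1 ranged from 0.996 to 81.8.

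The 2 sets of rows had a Pearson r of -0.93 over the 15 mice, and the Nat8f4 rows were above the Nat8f1 rows in 5 mice, the low ones. Their sum ranged from 45.3 to 90.4 FPM, a 1.99-fold range against 82.1-fold for Nat8f1 alone. How reads were divided between these overlapping rows in each mouse was not tested. Nat8f4 itself, a family member outside the 7, was called higher at 12 than at 3 months by 1.07 on the log2 scale (SE 0.36), with a limma p of 0.0157 adjusted to 0.229, and that value holds the same rows.

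Rows under another name also ran over Nat8f5, whose own transcript, ENSMUST00000032074, had FPKM of 2.58, 0.961, 2.31, 0.472 and 0.610 at 3 months, 1.08, 1.13, 0.505, 1.47 and 1.10 at 12 months and 1.49, 1.65, 2.13, 4.61 and 0.527 at 24 months. The ages overlapped, and the log2 difference between 12 and 3 months was -0.14 (SE 0.28), with a limma p of 0.634. Of 13 rows named Nat8f6, 12 had spans that ran over Nat8f5, and they held between 4.13 and 154 FPM where the Nat8f5 transcript held between 0.465 and 4.54. The median share of the Nat8f5 row in both was 2.45%, and rows named Nat8f6 were above it in 14 of 15 mice. Here r was -0.40, and the sum of both ranged 24.6-fold, from 6.32 to 156 FPM, against 9.76-fold for Nat8f5 alone. In summed FPKM, Nat8f6 was called lower at 12 than at 3 months by -1.34 on the log2 scale (SE 0.53), with a limma p of 0.0299 adjusted to 0.290. This value includes the rows whose spans run over Nat8f5. In FPM the 13 rows named Nat8f6 had means of 73.1 ± 24.3 at 3 months and 69.4 ± 62.7 at 12 months (SD, n = 5 per age). Their medians were 77.0 and 85.6 FPM, so the lower value was seen in FPKM only. These spans include introns, and the annotated one among the rows, ENSMUST00000174143, skips the 833-base last exon of Nat8f5. Fragments of the rows named Nat8f6 therefore need not come from Nat8f5.

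**Figure D5:**
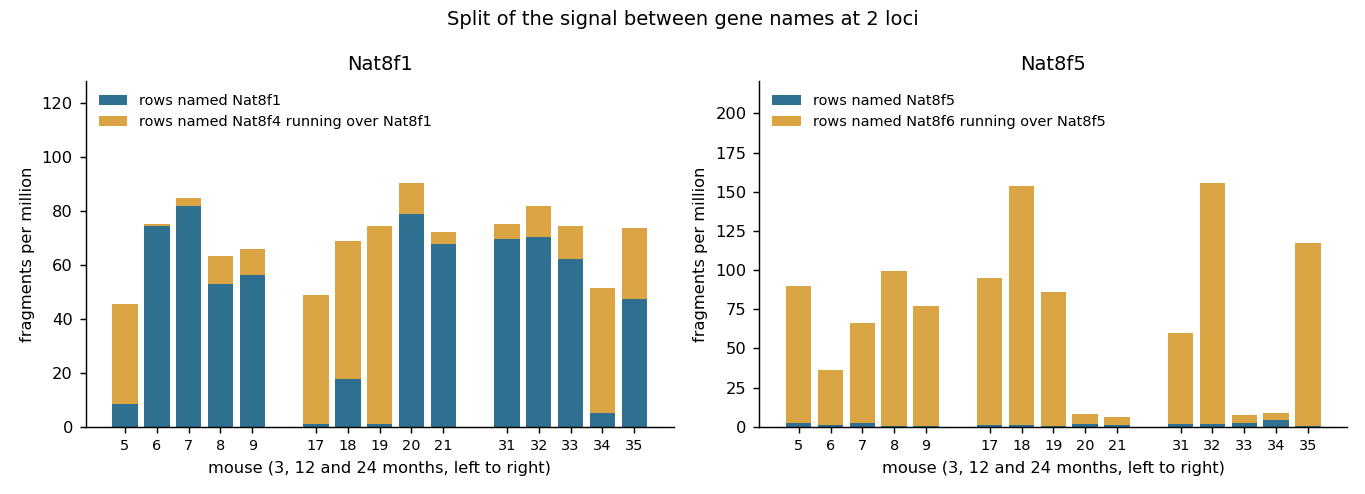
FPM, fragments relative to the library, in each mouse for rows named Nat8f1 or Nat8f5. Stacked on them are rows named Nat8f4 or Nat8f6 whose spans, introns included, run over the same gene. Rows named Nat8f4 were above rows named Nat8f1 in mice 5, 17, 18, 19 and 34, and rows named Nat8f6, which include transcripts of Nat8f6 itself, were above the Nat8f5 row in 14 of 15 mice.

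Nat8f2 was the steadiest of the abundant members from 12 months on. Its summed FPKM was 13.2, 3.82, 11.3, 5.87 and 14.2 at 3 months. It was 11.6, 12.0, 14.01, 12.4 and 11.3 at 12 months and 14.4, 12.3, 13.9, 11.8 and 14.8 at 24 months. Mice 6 and 8 at 3 months were below all others, and the remaining mice overlapped. Means were 9.68 ± 4.59, 12.3 ± 1.06 and 13.5 ± 1.31 (SD, n = 5 per age), and the log2 difference of 0.44 (SE 0.30) between 12 and 3 months had a limma p of 0.177. Between 24 and 3 months the log2 difference was 0.56 (SE 0.30), beside 0.54 for Alms1, as a description with no test.

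Nat8f3, Alms1 and Alms1-ps2 were correlated over the 15 mice, and less so once each age was centred on its mean. Pearson r of log2 values was 0.81 between Nat8f3 and Alms1-ps2 and 0.31 after centring each age, 0.79 and 0.49 between Alms1 and Alms1-ps2, and 0.63 and 0.12 between Nat8f3 and Alms1. The assembled MSTRG.30678.5, which overlaps the Alms1-ps2 region on the other strand, kept 0.78 with Alms1-ps2 after centring. Nat8 and Nat8f1 had 0.16 and 0.04. All points share library and locus, and the values describe these mice only.

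By the same centred r, and among 13428 genes outside the locus and its flanks with a mean FPKM of 1 or more, the gene most like Nat8f3 was Wdr72 with 0.91, and the most like Alms1-ps2 was Gnpnat1 with 0.87. Alms1 was most like Ift52, a component of intraflagellar transport in cilia, with 0.92, and Nat8f2 most like Cndp2, a dipeptidase, with 0.92. Nat8f1 was most like Cutal with 0.91, Nat8 like Mrpl33 with 0.89 and Nat8f5 like Phyh with 0.88. Each is the highest of 13428 values over only 15 mice.

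Of 29 listed genes of the mercapturic acid pathway around Nat8, from glutathione transferases and gamma-glutamyl transferases to conjugate transporters, 0 were called by limma in any of the 3 comparisons. Between 12 and 3 months 5 were higher and 1 lower at an unadjusted p under 0.05, with a median log2 difference of 0.11 beside 0.02 over all genes, and between 24 and 12 months 4 were higher and 1 lower, with a median of -0.06. Between 24 and 3 months 6 were higher and 2 lower, with a median of 0.07. The share of all genes at an unadjusted limma p under 0.05 was 14.3% between 12 and 3 months, 6.43% between 24 and 12 months and 14.9% between 24 and 3 months. Abcc4, an efflux pump for organic anions, had means of 9.0 ± 1.15, 9.82 ± 1.55 and 15.7 ± 2.99 FPKM (SD, n = 5 per age), a log2 difference of 0.73 (SE 0.13) between 24 and 3 months with an adjusted limma p of 0.0346. Slc22a8, an uptake carrier for organic anions, had means of 80.1, 96.8 and 113 FPKM and an adjusted limma p of 0.115 in that comparison.

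Of 12 Bardet-Biedl genes, whose proteins serve cilia as Alms1 does, 0 were called by limma in any comparison. Mkks was the one with an unadjusted limma p under 0.05 between 12 and 3 months, beside 14.3% of all genes, lower by -0.38 on the log2 scale, and the list's median was 0.04. Between 24 and 12 months Bbs12 alone did, beside 6.43% of all genes, higher by 0.35, and the median was 0.02. Between 24 and 3 months 5 were higher and 1 lower at an unadjusted p under 0.05, beside 14.9% of all genes, with a median of 0.04 beside 0.02 over all genes, and Bbs12 had means of 0.858, 1.11 and 1.68 FPKM and an adjusted limma p of 0.0391.

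Of 18 other annotated genes within 200 kb of the locus, 0 were called by limma in any comparison. Between 12 and 3 months 2 of 17 tested were higher and 3 lower at an unadjusted p under 0.05, with a median log2 difference of 0.02, between 24 and 12 months 1 was higher, and between 24 and 3 months 2 were higher and 3 lower, beside the same 14.3%, 6.43% and 14.9% of all genes. Among the 6 other family genes, Nat8f4 and Nat8f6 were the calls in summed FPKM between 12 and 3 months, with none in the other comparisons. Nat8f7, the near-identical copy of Nat8f3, had means of 8.30 ± 4.50, 8.52 ± 2.62 and 7.11 ± 2.91 FPKM (SD, n = 5 per age). The brain gene Nat8l was at 0.0840 FPKM or less on average at each age.

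The samples held the markers of kidney. The 9 proximal tubule markers summed to 2194 to 2487 FPKM at 3 months, 2159 to 2432 at 12 months and 2012 to 2269 at 24 months, with 0 of 9 at an unadjusted limma p under 0.05 between 12 and 3 months and 2 lower between 24 and 3 months. Immune cell markers summed to 1.12 to 4.89, 3.86 to 9.07 and 4.33 to 8.45, and 2 of 3 were higher at 12 and 3 of 3 at 24 than at 3 months at an unadjusted limma p under 0.05. Fibroblast markers summed to 7.74 to 15.8, 15.9 to 20.8 and 13.1 to 21.3, and 2 of 2 were higher at 12 and 1 of 2 at 24 months by the same measure. By that measure the share of all genes was 14.3% between 12 and 3 months and 14.9% between 24 and 3 months. None of the proximal tubule, immune cell or fibroblast markers had an adjusted limma p under 0.05 in either comparison. Both liver markers together, Alb and Apoa2, summed to 8.06 or less in every mouse. Among the listed markers the call was Aqp2, the water channel of collecting duct principal cells, with means of 69.6, 26.97 and 33.7 FPKM and a log2 difference of -1.17 (SE 0.36) between 12 and 3 months, with a limma p of 0.0095 adjusted to 0.191. Fxyd4, the other listed principal cell marker, was not under an unadjusted limma p of 0.05 in that comparison, and the median log2 difference of both was -0.57. The part of these cell types in the higher Nat8f3, Alms1 and Alms1-ps2 values was not tested.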

How the data were processed

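Per the labels, total RNA of whole mouse kidney was depleted of ribosomal RNA for a stranded kit, whereas the methods of the study name oligo(dT) selection. The authors used Cutadapt for trimming, the aligners Bowtie2 and HISAT2, the GRCm38 build with Ensembl genes, and StringTie for assembly, and their processing notes name StringTie, TopHat and TopHat2. The deposited FPKM values and the deposited coverage per transcript come from that step. How the deposited estimated counts and FPKM of circular RNAs were made, and whether the estimation used strand, is not given in the sources used here. Other deposited rows hold no count, so no interval from counting was possible. The ratio of coverage to FPKM gave 5.03 to 8.03 Gb aligned per mouse, and FPKM summed to 218394 to 242730. Mice of every age have titles that start with 3M, so ages were taken from the age label. 0 columns of per-sample values were left unmapped.

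FPKM of rows with class codes =, c, j or o was summed per gene name. Genes and transcripts with FPKM above 0 in 1 or more of the 10 mice compared were fitted with limma 3.58.1 (lmFit, eBayes, trend = TRUE; R 4.3.3) after transformation to log2(FPKM + 1), a pair of ages at a time, and adjusted by Benjamini-Hochberg over all features. The scripts were tested on simulated data. FPM were FPKM times length divided by 1000. Coding sequences and exons came from GENCODE vM21 on GRCm38 and were aligned with Biopython 1.88, and promoters came from RefSeq. The alternatives were a pseudocount of 0.1, a mean of at least 0.5 FPKM, all 15 mice in 1 fit, TPM scaling, a robust prior, annotated rows only, each mouse left out in turn, an exact permutation test for members and, added after seeing the data, FPM. The members and all lists were chosen with earlier results of these data known. Genes named are the 7 members with all their rows, the other family and locus genes, genes within 200 kb, the pathway lists and, for each member, the genes with the highest age-centred r at a mean of at least 1 FPKM.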

Additional observations from a re-analysis of the deposited data

Results flagged for a closer look

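In groups of 5 mice, a mouse was noted when its gap to the nearest other, as a share of the range of the group, passed Dixon's critical value of 0.71. Of 48 groups of values examined, 9 had such a mouse, and chance gives about 1 in 20. Nat8 had one at every age, with 49.59 FPKM in mouse 6 at 3 months (nearest other 13.2), 53.09 in mouse 18 at 12 months (nearest other 3.44) and 56.06 in mouse 35 at 24 months (nearest other 13.0). Its annotated transcript ENSMUST00000032073 had the same 3 mice, at 48.17, 44.09 and 50.55 FPKM, with 11.46, 2.76 and 11.2 as the nearest others. Because that transcript makes up most of the Nat8 sum, these 6 are 3 observations rather than 6. Alms1-ps2 was lowest at 24 months in mouse 35, with 2.421 FPKM and 4.69 as the nearest other, and this is the mouse highest in Nat8. The coding Nat8f3 transcript ENSMUST00000050780 was highest at 12 months in mouse 21, with 3.571 FPKM and 0.345 as the nearest other. The antisense MSTRG.30686.1 was lowest at 3 months in mouse 6, with 0.121 FPKM and 1.23 as the nearest other.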

How the results depend on the processing

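The number of genes called depended on the scale. It was 166 between 24 and 3 months and became 1046 with a pseudocount of 0.1, 582 in TPM and 300 in FPM, that is FPKM times length in kb, with 163 to 190 when a mouse was left out. Between 12 and 3 months 158 became 923, 476 and 269, with 150 to 187, and between 24 and 12 months 55 became 323, 191 and 116, with 57 to 81. For transcripts, 978 between 12 and 3 months became 5862 with that pseudocount and 4015 in TPM, with 952 to 1211, and 504 between 24 and 12 months became 3417 and 2437, with 554 to 700. The calls between 24 and 3 months were 82 higher and 84 lower, but 790 and 256 with the pseudocount and 401 and 181 in TPM. Between 12 and 3 months 88 and 70 became 672 and 251 with the pseudocount, and between 24 and 12 months 21 and 34 became 168 and 155 with the pseudocount, 104 and 87 in TPM and 20 and 53 with annotated rows only. No setting moved the median of all genes by over 0.1.

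Nat8f3 between 12 and 3 months passed the call with the pseudocount (1.40), in TPM (1.27), in FPM (1.70) and without mouse 6, 7, 9, 17, 19 or 20 (1.0 to 1.15), and Alms1-ps2 with the pseudocount (1.10). Over all settings Nat8f3 ranged from 0.78 to 1.70 and Alms1-ps2 from 0.63 to 1.10. Some signs turned. Nat8 between 24 and 3 months was -0.01, and became 0.0046 with the pseudocount, 0.02 in TPM and 0.18 with annotated rows only, with -0.56 to 0.48 when a mouse was left out. Nat8f1 in that comparison was -0.18, with -0.74 to 0.48, and ENSMUST00000050780 was -0.07 and became 0.014 without mouse 6. The other turns came when a mouse was left out. Nat8f5 between 12 and 3 months became 0.035 without mouse 5 and 0.0073 without mouse 7, and ranged from -0.29 to 0.035. ENSMUST00000050780 became -0.21 between 12 and 3 months (range to 0.31) and 0.14 between 24 and 12 months (range from -0.38) without mouse 21. Between 24 and 12 months MSTRG.30678.5 became -0.060 and -0.015 without mice 21 and 31 (range to 0.34), and MSTRG.30675.1 became -0.012 and -0.0038 without mice 21 and 34 (range to 0.39). The cause was not tested. No paired analysis was possible because the mice of different ages share no replicate number.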
